A study of Mus musculus with 5 samples.

Results

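Described here are 10 genes that encode substrate-binding parts of muscle ubiquitin ligases, of 19938 genes that the arrays measured through a probe set with a single gene symbol. They are the kelch genes Klhl31, Klhl38, Klhl40 and Klhl41, the F-box genes Fbxo32, Fbxo40 and Fbxl22, and the MuRF genes Trim54, Trim55 and Trim63. Members were chosen by symbol, with older symbols counted, and each of the 10 was found, on 11 of 21789 probe sets, since Klhl31 has 2. RNA came from 5 heart grafts of C57BL/6 mice, 8 weeks old by the methods, in which a donor heart was placed in the abdomen of a syngeneic recipient and joined to its large vessels. In the I/R grafts (2553, 2555 and 2557, n = 3) the donor heart was first kept in cold UW solution for 18 h, and in the non-I/R grafts (2554 and 2556, n = 2) it was implanted at once, so that both groups went through excision, surgery and reperfusion. Harvest was at 24 h after transplantation by the labels, and on day 2 by the published results section. Values are RMA signals on a log2 scale, with a median of 6.58 to 6.65 for each array.

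Ubiquitin ligases mark proteins for degradation by the proteasome, and the genes described here give them their choice of substrate in striated muscle. Kelch proteins of this kind bind the scaffold Cul3, F-box proteins bind Skp1 and through it Cul1, and MuRF proteins carry their own RING domain and sit on the sarcomere. Fbxo32 (atrogin-1, MAFbx) and Trim63 (MuRF1) are known as markers of muscle atrophy under the control of FoxO transcription factors, and Klhl40 and Klhl41 are known from their loss in nemaline myopathy.

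The grafts carried strong signals of heart muscle, and its markers were weaker in the I/R grafts. All 12 cardiomyocyte markers had lower mean signals there, 10 of them with an unadjusted p under 0.05 by limma, and the mean log2 level over the list was 12.27, 12.15 and 12.48 in I/R 2553, 2555 and 2557, against 12.98 and 12.87 in non-I/R 2554 and 2556. In bulk tissue, fewer cardiomyocytes and less RNA per cardiomyocyte cannot be told apart. Markers of skeletal muscle, which the abdominal wall could add, were low, with a list mean of 5.96 to 6.06 in the I/R grafts and 6.08 in each non-I/R graft. Of 12 neutrophil markers, 10 had higher means in the I/R grafts, with a list mean of 9.52, 10.27 and 9.80 there and of 8.90 and 9.25 in the non-I/R grafts. Some atrial markers split both groups. Myl7, with the widest spread of the 6 measured, had 6.72, 11.08 and 8.56 in I/R 2553, 2555 and 2557 and 10.67 and 5.52 in non-I/R 2554 and 2556. Myl4 and Sln were also highest in I/R 2555 and non-I/R 2554. The others did not share this split: Bmp10 was highest in non-I/R 2554 (7.29) and lowest in I/R 2555 (4.79), Nppa was lower in all I/R grafts, and Nr2f2 varied little. The part of these markers in the differences below was not tested.

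Most of the 10 ligase genes had lower mean signals in the I/R grafts, led by Klhl38 and Klhl31, while Klhl40 and Klhl41 did not. Klhl38, Klhl31, Trim55 and Trim63, or 4 of 10 genes, were lower by limma (unadjusted p under 0.05), and none was higher. Of all probe sets, 7.35% were lower and 7.64% higher. These shares include many dim or tied probe sets. Among probe sets with a mean log2 value of at least 6, 10.3% were lower, and again 4 of the 10 genes. Among those with no tied value, 15.7% were lower, and 6 of 9 members. Klhl38 and Klhl31 also met the study's criterion of a 2-fold difference at that p, as did 1.0% of all probe sets in this direction. Both stand in the study's own list of differing genes, made from these arrays, so that these counts are not independent of it. No member passed an adjusted p of 0.05 by limma, and 0% of all probe sets did. By the test that the methods name for the arrays, which does not share the spread between genes, 2 of all probe sets passed after adjustment. None of them was a member, and 3 members were lower without adjustment, against 4.52% of all probe sets. By limma, the counts of lower members and of those at 2-fold both fell when either non-I/R graft was left out. Each of these settings leaves 1 graft in that group. The shares over all probe sets, lower and at 2-fold, fell without non-I/R 2554 and rose without non-I/R 2556. Klhl38 had a log2 fold change of -2.01 without non-I/R 2554 and -3.14 without non-I/R 2556. The brighter Klhl31 probe set had -1.33 and -1.49 in these settings. All 3 I/R grafts lay below both non-I/R grafts for 6 of the 10 genes, against 16.2% of all probe sets, and above both for none (15.8% of all), while for the other 4 the groups overlapped. Mean signals were lower for 8 of the 10 genes, against 54.4% of all probe sets. The median log2 fold change was -0.52 over the 10 genes, -0.0079 over all probe sets and -0.52 over the 12 cardiomyocyte markers. With 3 grafts against 2, an exact permutation test cannot give a two-sided p under 0.1.

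**Figure D1:**
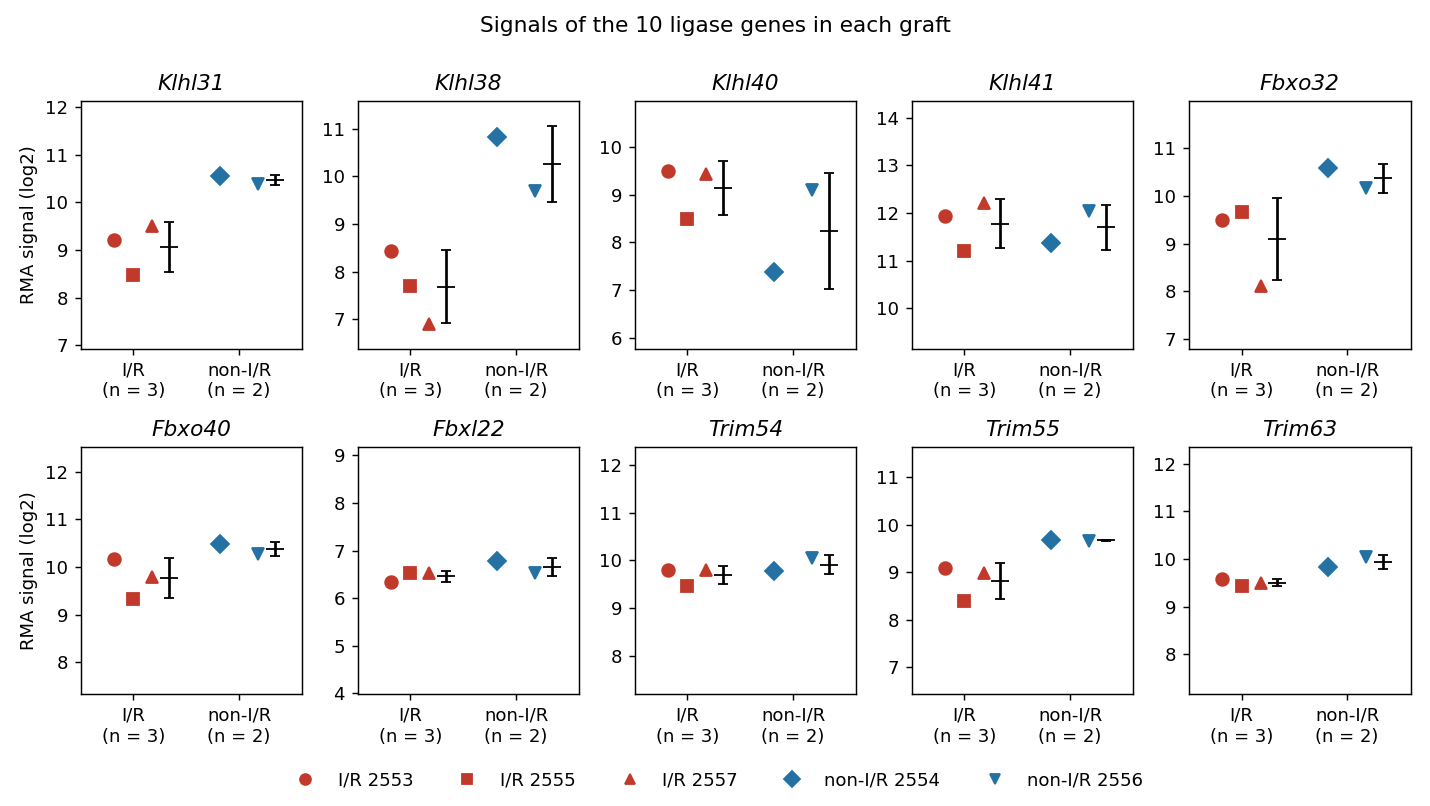
RMA signal (log2, y axis, each panel spanning the same number of log2 units) of the 10 genes in each graft, red for I/R (n = 3) and blue for non-I/R (n = 2), with mean ± SD in black. Klhl31 is its brighter probe set. Klhl38 shows the widest gap between the groups, and Klhl40 shows a low non-I/R 2554 at 7.38.

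Promoters are shown for genes with both kinds of difference, so that the regions before Trim63 and Klhl31, lower in the I/R grafts, can be read beside those of Klhl40 and Klhl41, which were not. RefSeq windows (GRCm38.p6) were found for 7 of the 10 genes, and not for Klhl38, Fbxo32 and Trim55. Each run is the 250 bases before the start, 5′ to 3′ on the strand of the gene, here all on the plus strand. Capitals mark 3 motifs searched on both strands, with no overlap between motifs in these runs. They were the muscle-type E-box CAGCTG, the FoxO core TAAACA, which reads TGTTTA on the other strand, and a MEF2 pattern, in which CTA and TAG stand around any 4 bases.
Trim63, chr4:134314870-134315119: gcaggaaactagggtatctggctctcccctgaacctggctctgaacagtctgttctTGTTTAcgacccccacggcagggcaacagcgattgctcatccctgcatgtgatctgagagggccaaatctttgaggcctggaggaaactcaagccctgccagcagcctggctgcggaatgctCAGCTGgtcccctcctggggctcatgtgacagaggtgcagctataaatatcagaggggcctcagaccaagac
Klhl31, chr9:77636482-77636731: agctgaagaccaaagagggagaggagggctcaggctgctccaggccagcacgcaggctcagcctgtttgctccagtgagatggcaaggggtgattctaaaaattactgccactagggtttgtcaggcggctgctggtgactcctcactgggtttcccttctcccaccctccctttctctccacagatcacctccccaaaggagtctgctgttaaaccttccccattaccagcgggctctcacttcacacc
Klhl40, chr9:121777357-121777606: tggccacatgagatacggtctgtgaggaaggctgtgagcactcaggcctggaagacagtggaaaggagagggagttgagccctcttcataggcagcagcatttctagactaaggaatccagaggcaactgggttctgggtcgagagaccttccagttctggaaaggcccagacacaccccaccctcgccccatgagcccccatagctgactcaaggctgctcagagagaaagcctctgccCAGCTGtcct
Klhl41, chr2:69669870-69670119: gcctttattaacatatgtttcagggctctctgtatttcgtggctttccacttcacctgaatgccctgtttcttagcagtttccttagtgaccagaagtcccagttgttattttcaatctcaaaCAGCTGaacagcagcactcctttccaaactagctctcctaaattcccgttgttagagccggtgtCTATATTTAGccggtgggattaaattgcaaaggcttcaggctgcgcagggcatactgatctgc
The Trim63 run holds a FoxO core whose first base is 194 bases before the start and an E-box 72 bases before it. Klhl40 has an E-box 10 bases before the start, and Klhl41 has an E-box at 127 bases and a MEF2 pattern at 63 bases. None of the 3 patterns is in the Klhl31 run. Over the 7 genes, the E-box was found for 5 (Klhl40, Klhl41, Fbxo40, Trim54 and Trim63), the FoxO core for 2 (Trim63 and Fbxl22) and the MEF2 pattern for 1. Of 32851 RefSeq windows of the same length, 13.0% hold the E-box, 12% the FoxO core and 3.2% the MEF2 pattern. A match is a run of letters and not a shown binding site.

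Klhl38, a kelch gene of striated muscle, had the largest difference of the 10. Its log2 signals were 8.44, 7.71 and 6.91 in I/R 2553, 2555 and 2557, against 10.82 and 9.69 in non-I/R 2554 and 2556. All I/R grafts lay below both non-I/R grafts, and each group spread over more than 1 log2 unit (1.53 and 1.13). The log2 fold change was -2.58 (SE 0.63, 95% interval -4.35 to -0.80, unadjusted p = 0.0163 and adjusted p = 0.286 by limma), or 5.96-fold, the 7th lowest of all 21789 probe sets. Spread within the groups was also large, since 0.285% of all probe sets had a larger pooled SD than its 0.777, where the median was 0.103. Without I/R 2555 it was -2.59 (unadjusted p = 0.0584 by limma), and without non-I/R 2554 it was -2.01 (unadjusted p = 0.0929).

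Klhl31, a kelch gene that skeletal muscle of the mouse needs to keep its myofibrils, was lower by both of its probe sets. The brighter one had 9.21, 8.47 and 9.50 in I/R 2553, 2555 and 2557, against 10.55 and 10.39 in non-I/R 2554 and 2556. The other had 8.86, 8.18 and 9.12 in the I/R grafts and 10.12 and 9.88 in the non-I/R grafts. The 5 grafts stood in the same order in both, with I/R 2555 lowest and the non-I/R grafts close together. The log2 fold changes were -1.41 (SE 0.36, 95% interval -2.42 to -0.40, adjusted p = 0.286 by limma) and -1.28 (SE 0.33, 95% interval -2.22 to -0.35, adjusted p = 0.289), with unadjusted p of 0.0182 and 0.0196. For the brighter one, leaving out I/R 2553 gave -1.49 (unadjusted p = 0.0552 by limma), leaving out non-I/R 2554 gave -1.33 (0.103) and leaving out non-I/R 2556 gave -1.49 (0.0820). The other gave -1.35, -1.16 and -1.41 in these settings, with unadjusted p of 0.0577, 0.113 and 0.0763 by limma.

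Klhl40, which in mouse muscle stabilises nebulin and leiomodin 3, had a higher mean in the I/R grafts, with overlapping groups. Its signals were 9.49, 8.49 and 9.44 in I/R 2553, 2555 and 2557, and 7.38 and 9.09 in non-I/R 2554 and 2556. The low value of non-I/R 2554 carried most of the difference. Its log2 fold change was 0.90 (SE 0.68, 95% interval -1.01 to 2.82, adjusted p = 0.511 by limma), 0.048 without that graft and 1.76 without non-I/R 2556. Only 0.188% of all probe sets had a larger pooled SD within groups. The grafts with the lowest Klhl40, non-I/R 2554 and I/R 2555, were those with the highest Myl7. Without both of them, left out after the atrial signals were seen, the log2 fold change was 0.37.

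Klhl41, a partner of nebulin in myofibril assembly, was close to level between the groups. Signals were 11.93, 11.20 and 12.21 in I/R 2553, 2555 and 2557 and 11.37 and 12.04 in non-I/R 2554 and 2556. Here too I/R 2555 and non-I/R 2554 were the lowest of the 5, so that the spread lay within the groups. A log2 fold change of 0.074 (SE 0.41, 95% interval -1.08 to 1.23, adjusted p = 0.949 by limma) was found, with an interval that leaves room for a 2-fold difference either way. With 1 graft left out it lay between -0.26 without non-I/R 2554 and 0.41 without non-I/R 2556, and it was -0.14 without I/R 2557. Within a graft, Klhl40 minus Klhl41 was -2.43, -2.71 and -2.77 in the I/R grafts and -3.99 and -2.94 in the non-I/R grafts, a difference of 0.83 (exact permutation p = 0.1, adjusted p = 0.3 over 6 pairs). Without non-I/R 2554 this difference was 0.31 and without non-I/R 2556 it was 1.36. Klhl38 minus Klhl31 differed by -1.16 between the groups (exact permutation p = 0.4, adjusted p = 0.4), with overlapping groups, by -0.56 without I/R 2557 and by -0.68 without non-I/R 2554.

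Fbxo32, which encodes atrogin-1, had a lower mean in the I/R grafts with a wide spread. Its signals were 9.50, 9.67 and 8.11 in I/R 2553, 2555 and 2557, against 10.59 and 10.16 in non-I/R 2554 and 2556. Groups did not overlap, and I/R 2557 lay far below the other I/R grafts. Its log2 fold change was -1.28 (SE 0.58, 95% interval -2.93 to 0.37, unadjusted p = 0.0966 and adjusted p = 0.415 by limma). Without I/R 2557 it was -0.79, and the unadjusted p was then 0.0351 by limma. In the RefSeq annotation Fbxo32 and Klhl38 are neighbouring protein-coding genes on chromosome 15, and both were lowest in I/R 2557 and highest in non-I/R 2554. The coding genes on either side of the pair, Wdyhv1 and Anxa13, had log2 fold changes of -0.27 and -0.073. The root mean square difference of centred log2 values was 0.737 between Fbxo32 and Klhl38, and 0.712 between Fbxo32 and Trim63 on chromosome 4. This measure grows with the spread of each gene (pooled SD 0.777 for Klhl38 and 0.107 for Trim63). It therefore cannot tell which of the 2 has a profile more like that of Fbxo32. A part of the shared locus was not tested.

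Fbxo40 and Fbxl22 differed less. Fbxo40, which in mouse skeletal muscle directs the insulin receptor substrate Irs1 to degradation, had 10.17, 9.33 and 9.79 in I/R 2553, 2555 and 2557, against 10.48 and 10.28 in non-I/R 2554 and 2556. Groups did not overlap, though I/R 2553 lay just below non-I/R 2556. The log2 fold change was -0.62 (SE 0.29, 95% interval -1.42 to 0.19, adjusted p = 0.420 by limma), -0.82 without I/R 2553 (unadjusted p = 0.0396) and -0.40 without I/R 2555 (unadjusted p = 0.130). Fbxl22, a ligase adaptor of the cardiac Z-disc, had 6.33, 6.52 and 6.52 in I/R 2553, 2555 and 2557 and 6.78 and 6.52 in non-I/R 2554 and 2556. It held 3 distinct values on 5 arrays, the same one in I/R 2555, I/R 2557 and non-I/R 2556, so that its log2 fold change of -0.19 (SE 0.11, adjusted p = 0.477 by limma) rests on the other 2 grafts. Leaving out I/R 2553 gave -0.13, leaving out non-I/R 2554 gave -0.064 and leaving out non-I/R 2556 gave -0.32. The difference between Fbxo40 and Fbxl22 within a graft did not separate the groups (-0.42, exact permutation p = 0.4, adjusted p = 0.4), and was -0.69 without I/R 2553 and -0.17 without I/R 2555.

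Trim63, which encodes MuRF1 and acts on thick filament proteins, had a small difference with little spread. Its signals were 9.58, 9.44 and 9.49 in I/R 2553, 2555 and 2557, against 9.83 and 10.04 in non-I/R 2554 and 2556. All I/R grafts lay below both non-I/R grafts, within a range of 0.15 log2 units. This gave a log2 fold change of -0.43 (SE 0.088, 95% interval -0.68 to -0.18, unadjusted p = 0.00904 and adjusted p = 0.282 by limma), or 1.35-fold. Of the 10 genes, it was the only one with an unadjusted p under 0.05 in each of the 18 other settings run, and with 1 graft left out its log2 fold change lay between -0.54 and -0.32. Its pooled SD of 0.107 was near the median of all probe sets.

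Trim55 (MuRF2), which links titin signalling to the nucleus, had a larger difference than Trim63, and Trim54 (MuRF3), which binds microtubules, a smaller one. Trim55 had 9.09, 8.39 and 8.98 in I/R 2553, 2555 and 2557, against 9.68 and 9.66 in non-I/R 2554 and 2556. The non-I/R grafts were nearly equal and I/R 2555 was the lowest. The log2 fold change was -0.85 (SE 0.25, 95% interval -1.55 to -0.15, unadjusted p = 0.0287 and adjusted p = 0.298 by limma). Leaving out non-I/R 2554 gave -0.84 (unadjusted p = 0.127 by limma), non-I/R 2556 gave -0.86 (0.121) and I/R 2557 gave -0.93 (0.0604), and the test named in the methods, on all 5 grafts, missed the threshold with an unadjusted value of 0.0559. Trim54 had 9.80, 9.47 and 9.80 in I/R 2553, 2555 and 2557 and 9.77 and 10.05 in non-I/R 2554 and 2556, with overlapping groups. Its log2 fold change was -0.22 (SE 0.16, 95% interval -0.66 to 0.22, adjusted p = 0.499 by limma), and leaving out I/R 2555 gave -0.11, non-I/R 2554 gave -0.36 and non-I/R 2556 gave -0.080.

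The MuRF genes were also set against each other within each graft. Trim54 minus Trim55 was 0.71, 1.08 and 0.83 in the I/R grafts and 0.09 and 0.39 in the non-I/R grafts, so that every I/R graft was higher (difference 0.63, exact permutation p = 0.1, adjusted p = 0.3). Trim63 minus Trim55 was 0.49, 1.04 and 0.51 in the I/R grafts and 0.15 and 0.38 in the non-I/R grafts. Every I/R graft was higher here too (difference 0.42, exact permutation p = 0.3, adjusted p = 0.4). Fbxo32 minus Trim63, the atrophy markers, differed by -0.85 with overlapping groups (exact permutation p = 0.4, adjusted p = 0.4). Without I/R 2555, Trim63 minus Trim55 differed by 0.24. Fbxo32 minus Trim63 differed by -0.37 without I/R 2557 and by -0.52 without non-I/R 2554. None of the 6 pairs could pass a threshold of 0.05 in this design.

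**Figure D2:**
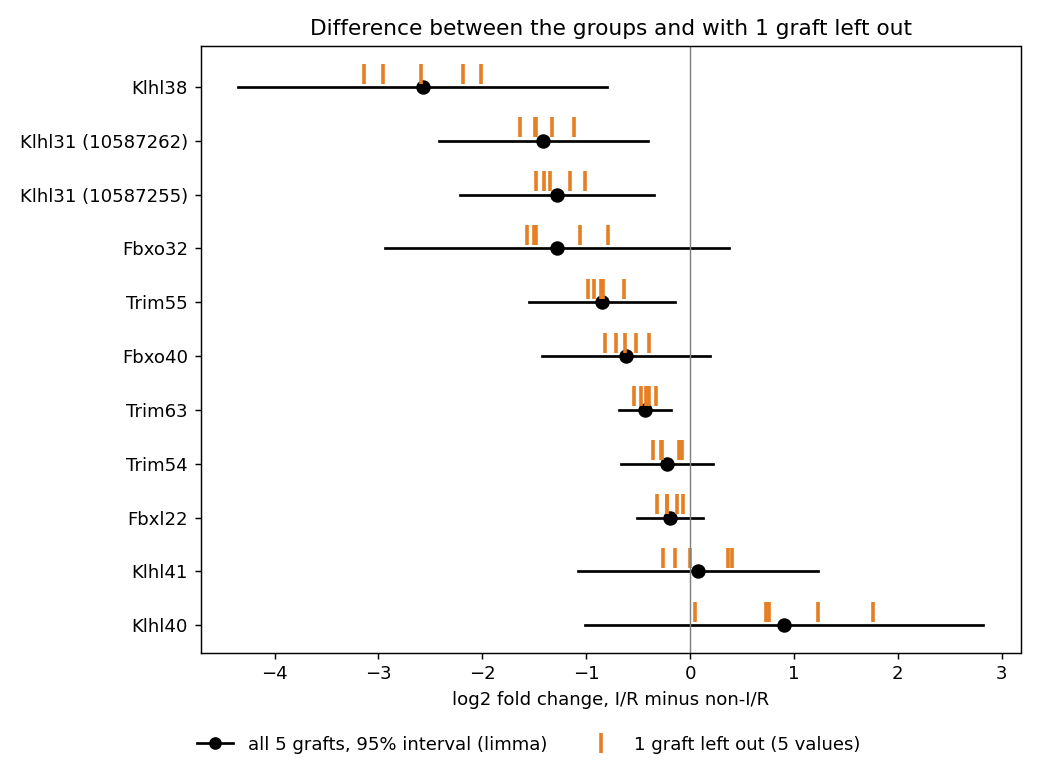
Log2 fold change of 3 I/R over 2 non-I/R grafts (x axis) for the 11 probe sets (y axis), as black points with 95% intervals from limma, and orange ticks for the 5 values with 1 graft left out. Intervals of Klhl38, both Klhl31 probe sets, Trim55 and Trim63 lie below 0, and the ticks of Klhl41 fall on both sides of it.

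Signals of the 10 genes were set beside those of heart muscle in the same graft. The mean of the 12 cardiomyocyte markers was lower in the I/R grafts by a log2 difference of -0.63. Relative to that mean, Klhl38 still had lower values in all I/R grafts (-3.83, -4.44 and -5.57 in I/R 2553, 2555 and 2557, against -2.16 and -3.17 in non-I/R 2554 and 2556), a difference of -1.95. The brighter Klhl31 probe set also stayed lower in all I/R grafts, with -0.78. Fbxo32 had -0.65, Trim55 -0.22, Fbxo40 0.012 and Trim63 0.20, each with overlapping groups. Klhl40 was higher on this scale in every I/R graft (-2.77, -3.66 and -3.04, against -5.61 and -3.77 in the non-I/R grafts), a difference of 1.53, which was not tested and was 0.62 without non-I/R 2554 and 2.45 without non-I/R 2556. Trim54 and Fbxl22 were also higher in all I/R grafts on this scale, by 0.41 and 0.44, and Klhl41 had 0.70 with overlap. A gene with equal signals in both groups would stand 0.63 higher here, since the marker mean was lower. The signals of Trim54 and Fbxl22 themselves had log2 fold changes of -0.22 and -0.19. The share of all probe sets that separate the groups on this scale was not counted. Without non-I/R 2554, Trim54 had 0.21 and Klhl41 had 0.31, and Fbxo32 had -0.070 without I/R 2557. This scale was added after the marker signals were seen.

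**Figure D3:**
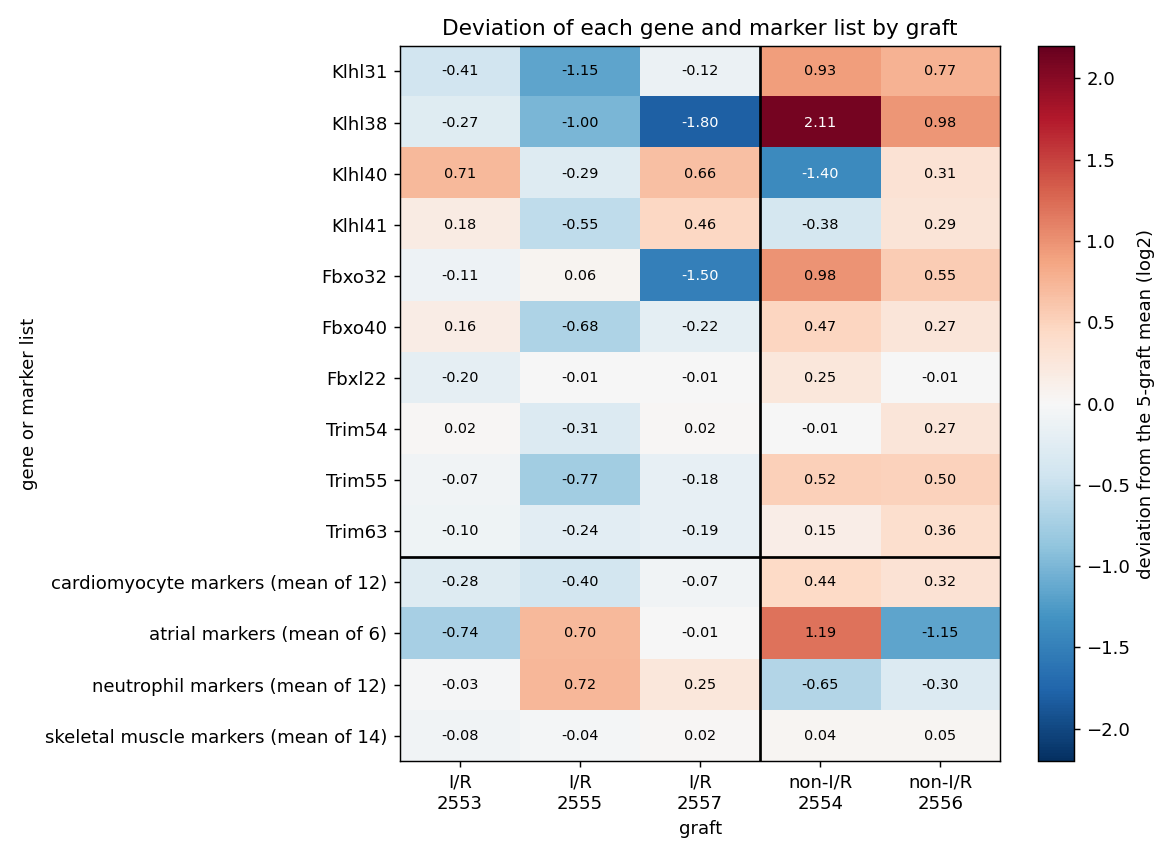
Deviation of each gene from its mean over the 5 grafts (log2, colour and printed value), with I/R grafts left of the line and non-I/R grafts right of it, and mean deviations of 4 marker lists in the lower rows. Klhl38 runs between -1.80 in I/R 2557 and 2.11 in non-I/R 2554, while Klhl40 has its lowest value, -1.40, in non-I/R 2554, where the atrial markers are at 1.19.

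Other genes of the same families had medians near 0. By limma (unadjusted p under 0.05), 2 of 41 other kelch and KBTBD genes were lower and 5 higher, and the median log2 fold change was -0.004. The 3 with the smallest p were Klhl2, Klhl42 and Klhl5, with 0.45 (SE 0.10), 0.16 (SE 0.037) and 0.18 (SE 0.045). Both lower ones, Klhl24 with -1.30 (SE 0.37) and Klhl13 with -1.19 (SE 0.37), differed by over 2-fold and are named for their size after their values were seen. Among 67 other F-box genes, 11 were lower and 4 higher, with a median of -0.015, and Fbxo42, Fbxl17 and Fbxo31 had 0.20 (SE 0.027), -0.28 (SE 0.054) and -1.65 (SE 0.33). Of 55 other TRIM genes, 2 were lower and 6 higher, and Trim27, Trim68 and Trim47 had 0.47 (SE 0.061), -1.19 (SE 0.17) and 0.62 (SE 0.16). These families were dimmer than the 10 genes, whose list mean was 8.87 to 9.79 over the grafts. List means were 7.33 to 7.57 for the other kelch, 7.10 to 7.21 for F-box and 7.18 to 7.24 for TRIM genes. Some of these genes, such as Fbxw15 and Trim71, had the same value on all 5 arrays. None of the family genes passed an adjusted p of 0.05, and the difference between the families and the 10 genes was not tested.

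Other ligases known from muscle included several with large differences. Of 28 measured genes on that list, 9 were lower and 3 higher by limma (unadjusted p under 0.05), with a median of -0.13. At the 2-fold criterion, 6 were lower and none higher. Of all probe sets, 7.35% were lower and 7.64% higher, and 1.0% and 0.50% at the 2-fold criterion. The kelch, F-box and TRIM genes on the list, among them Fbxo31, Fbxo21 and Trim72, were also counted in the families above. Smurf1, which acts on SMAD signalling, had 0.49 (SE 0.055), and the ankyrin repeat adaptors Asb2 and Asb15 had -2.04 (SE 0.29) and -2.91 (SE 0.55). Asb15 had 6.37, 5.82 and 5.80 in I/R 2553, 2555 and 2557, against 9.68 and 8.15 in non-I/R 2554 and 2556. Asb2, Asb11, Asb15 and Fbxo31 stand in the study's own list of differing genes, made from these arrays, so that the count is not independent evidence. The shared machinery of cullin ligases differed little: of 26 measured genes, 4 were lower and none higher, with a median of -0.048. Cand2, the muscle form of the factor that exchanges substrate adaptors on cullins, had 9.08, 8.57 and 8.93 in I/R 2553, 2555 and 2557, against 9.76 and 9.49 in non-I/R 2554 and 2556, a log2 fold change of -0.77 (SE 0.20). The ubiquitin-like protein Nedd8, which activates cullins, had -0.12 (SE 0.035) and Cul9 -0.18 (SE 0.059). The scaffolds Cul3 and Cul1, named here for their role, had -0.12 (SE 0.060) and -0.019 (SE 0.037).

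**Figure D4:**
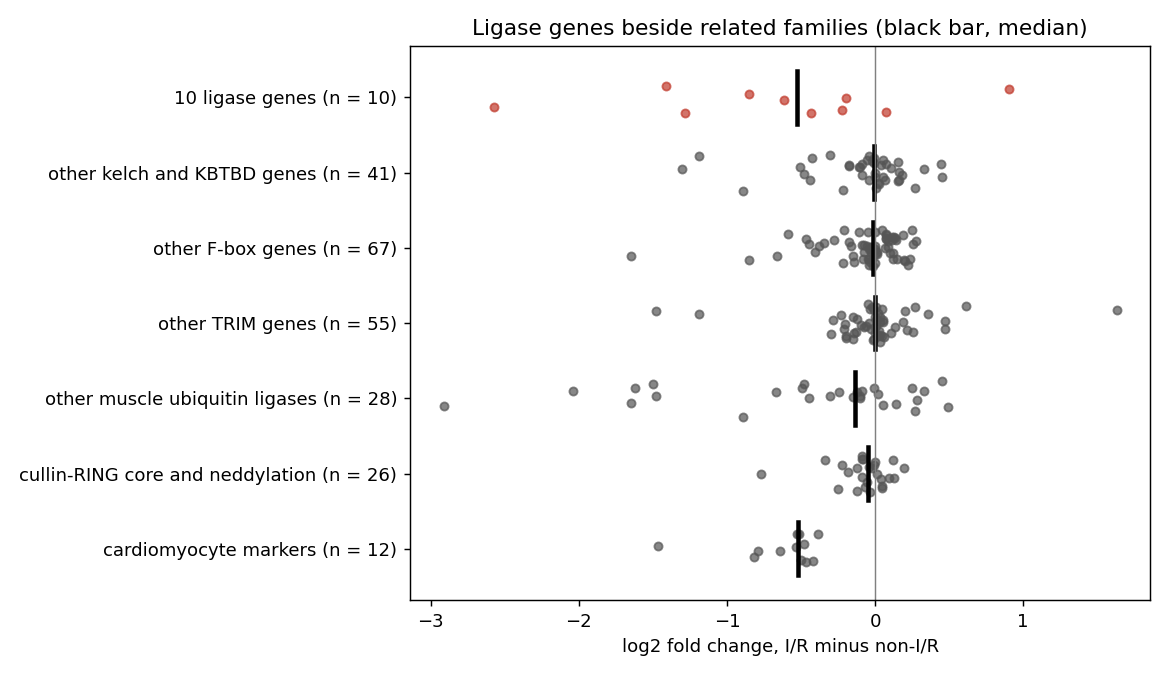
Log2 fold change of 3 I/R over 2 non-I/R grafts (x axis) for the 10 ligase genes (red) and for related lists and cardiomyocyte markers (grey), with 1 point for each gene and a black bar at the median. Medians are -0.52 for the 10 genes and for the cardiomyocyte markers, and lie near 0 for the other kelch, F-box and TRIM genes. Those 3 families have dimmer signals than the 10 genes. Their genes that are also on the list of other muscle ligases are drawn in both rows.

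Genes of proteins that these ligases are known to bind or degrade had mixed signals. The arrays measure transcripts and do not show the levels of these proteins, on which the ligases act. Of 24 such genes, 7 were lower and 2 higher by limma (unadjusted p under 0.05), with a median of -0.34. The 3 with the smallest p were Mybpc3 with -0.79 (SE 0.090), Ttn with -0.64 (SE 0.099) and Myl2 with -0.50 (SE 0.099). These sarcomere genes are also on the cardiomyocyte list, as are Actn2 and Tnni3, which were lower at that p, and Myh6. The count and the median therefore repeat in part the values of the cardiomyocyte markers. Irs1, the substrate of Fbxo40, had 6.96, 6.43 and 6.81 in I/R 2553, 2555 and 2557, against 7.73 and 7.34 in non-I/R 2554 and 2556, which is -0.80 on the log2 scale (SE 0.22, adjusted p = 0.292 by limma). Lmod3, which Klhl40 stabilises, had 8.40, 6.91 and 7.93 in the I/R grafts and 8.82 and 8.76 in the non-I/R grafts, with -1.04 (SE 0.50), and Neb had -0.25 (SE 0.18). Flnc, a filamin of the Z-disc, had the opposite sign, with 12.72, 12.89 and 13.22 in the I/R grafts, 11.39 and 12.61 in the non-I/R grafts and a log2 fold change of 0.95 (SE 0.44). Irs1, Lmod3, Neb and Flnc were named for their link to members, after their values had been seen.

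Regulators of the atrophy ligases lay on both sides of 0. Of 29 measured genes, 6 were lower and 4 higher by limma (unadjusted p under 0.05), with a median of -0.082. The coactivator Ppargc1a, which is known to restrain atrophy genes, had 9.39, 8.48 and 8.94 in I/R 2553, 2555 and 2557, against 10.63 and 10.35 in non-I/R 2554 and 2556, with -1.55 (SE 0.32). Smad3, which carries myostatin signals, had 0.35 (SE 0.093), and the cytokine Tnf had 0.69 (SE 0.20). Foxo1 and Foxo3, the factors best known for inducing Fbxo32 and Trim63, had 0.069 (SE 0.072) and -0.047 (SE 0.10), and Klf15, a glucocorticoid-induced factor that acts with them, had -0.99 (SE 0.30). Those last 3 are outside the rule for named genes and were picked for their role with values known. Transcript levels do not show the activity of FoxO proteins, which is set by phosphorylation.

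Genes with the most similar profiles were looked for over the 5 grafts, by the rms difference of log2 values centred on each gene's mean, among 19928 other genes. For the brighter Klhl31 probe set they were the cardiac catenin Ctnna3 (rms 0.180), the natriuretic peptide protease Corin (0.183) and the ventricular factor Irx4 (0.185), with log2 fold changes of -1.18, -1.55 and -1.23. For Klhl38 they were Iigp1 (0.135), Adh1 (0.222) and C7 (0.242), an interferon-induced GTPase, an alcohol dehydrogenase and a complement protein, with -2.50, -2.30 and -2.16. Klhl40 was nearest to Rras2 (0.186), Lmcd1 (0.206) and Nppb (0.207), the last of which encodes B-type natriuretic peptide. Klhl41 was nearest to Thumpd3 (0.0746), the caveolar muscle protein Cavin4 (0.0912) and the potassium channel Kcna4 (0.0971). Trim55 was nearest to Clybl (0.0336), Crhr2 (0.0366) and the complex III subunit Uqcrfs1 (0.0406). Fbxo32 had no gene nearer than 0.244 (Olfr1033, followed by Slc10a6 and Ifi27l2a). The nearest genes were Nme3, Apip and Tmx2 for Fbxo40 (rms from 0.0414), Olfr1222, Zfp503 and Lrrn4 for Fbxl22, Nadk2, Actg2 and Zfp672 for Trim54 and Syt11, Clec14a and Mir133a-1 for Trim63. The other Klhl31 probe set was nearest to the formin Fhod3 (0.118), Ctnna3 (0.123) and Art3 (0.136). Among the 10 genes, Trim54 and Trim63 were the closest pair (0.138), followed by Fbxo40 and Trim55 (0.153), and Klhl38 and Klhl40 were the farthest apart (2.02). Genes that vary little lie close to each other by this measure, so that values are not comparable between members.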

How the data were processed

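Gene expression was measured on Affymetrix Mouse Gene ST arrays, 1 for each of 5 grafts, and groups were taken from the labels. The authors deposited log2 values of 35556 probe sets. Partek and RMA, with no version, are named in the processing notes of the submitters. RMA corrects background, equalises the distributions of the arrays and summarises probes, so that a change common to most genes could be lost. The values were used as deposited. Platform symbols were updated by gene ID with a RefSeq table (GRCm38.p6), which held the IDs of 21698 of 21789 probe sets with a single symbol. Another 1621 with several symbols and 12146 not listed were left out. For genes with several probe sets the brightest stood in lists.

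Groups were compared with limma 3.58.1 in R 4.3.3 (lmFit, eBayes, prior df 0.824, statmod 1.5.0), adjusted by Benjamini-Hochberg over 21789 probe sets. Of these, 11715 had values tied between arrays, 757 of them on all 5. Each sample carries a graft number of its own, the labels name no animals, and p-values measure how these samples spread. The number of arrays limits the precision. Steps were tested on simulated data. Named genes are all members, the 3 with the smallest p in each list, the 3 nearest profiles, and others marked as such. Members and lists were chosen with earlier results of these data known. Settings tried were the test the methods name (ANOVA, here equal to a t-test with equal variances), trend, robust, array weights, 3 normalizations, a floor of 6 on mean log2 value, other probe set choices and leaving out grafts. Plots used matplotlib 3.10.9 in Python 3.11.15.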

Additional observations from a re-analysis of the deposited data

How the results depend on the processing

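Over the 11 probe sets and 18 other settings, 194 of 196 log2 fold changes kept their sign and 173 also their side of an unadjusted p of 0.05, while 15 lost and 6 gained it. Both changes of sign were of Klhl41, which ranged between -0.26 without non-I/R 2554 and 0.41 with 1 graft left out, with -0.14 without I/R 2557. The cause was not tested. The count of members lower by limma (unadjusted p under 0.05) was 4 with all grafts. It was 3 without I/R 2555, where 5.76% of all probe sets were lower, and it fell without either non-I/R graft. The count at the 2-fold criterion, 2 with all grafts, was 1 without I/R 2553 and 1 without I/R 2555. Of all probe sets, 1.31% and 0.45% met it in these settings. This count also fell without either non-I/R graft. Without both non-I/R 2554 and I/R 2555, left out after the data were seen, it was 0, and 1 member (Klhl40) was higher by limma (unadjusted p under 0.05). Klhl40 was not the only member past that threshold there. Trim54, Trim55 and Trim63 passed it as lower, with log2 fold changes of -0.25, -0.62 and -0.51, against 0.37 for Klhl40. Only 1 non-I/R graft remained without both of these grafts. The smaller number of grafts is part of each of these settings. A setting with only the 10074 probe sets that have no tied value was added after ties were seen. There, 6 of 9 members were lower at that p and 3 at 2-fold. Shares over all probe sets were also larger there, with 15.7% lower and 2.73% at 2-fold. The median over the members lay between -0.65 and -0.40 with 1 graft left out. Leaving out a non-I/R graft leaves 1 in that group, which is then assumed to vary like the I/R grafts. No member passed an adjusted p of 0.05 in any setting. No paired analysis was possible because the labels carry no replicate numbers, only a separate number for each graft.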
